A study of Mus musculus with 5 samples.

Results

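The B cells of Renca tumours were followed in single-cell RNA libraries of 5 treatment groups. A barcode was taken as a B cell when its deposited counts of unique molecular identifiers (UMIs, one per captured RNA molecule) held at least 3 UMIs of Cd79a and Cd79b together and at least 1 UMI over Ms4a1, Ebf1, Bank1, Pax5 and Fcmr. It also had to hold at most 1 UMI of Cd3e, Cd3d and Cd3g, at most 2 of C1qa, C1qb and C1qc, and 0 of Siglech. This rule found 204 of the 52408 barcodes that held at least 500 UMIs and 300 genes with at most 10% mitochondrial UMIs. PBS held 71 of them, PD1plusCTLA4 held 123, PD1plusCD40 held 3, CD40plusCTLA4 held 4 and Triplet held 3. The cells were thus chosen by the raw UMIs of these genes, whose levels are given below as description only.

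Renca, a mouse renal cortical adenocarcinoma line, was grown under the skin of wild-type Balb/c mice. From day 10 the mice received 2 intraperitoneal treatments with PBS (library PBS), anti-PD-1 and anti-CTLA-4 (PD1plusCTLA4), anti-PD-1 and anti-CD40 (PD1plusCD40), anti-CD40 and anti-CTLA-4 (CD40plusCTLA4), or all 3 antibodies (Triplet), with 200 µg of each antibody, and tumours were taken 24 hours after the second treatment. Each library pooled 3 mice, and sorted CD45+ CD3+ T cells, other CD45+ cells and CD45- cells were mixed 2:1:1 before 10000 cells were loaded. There is 1 library per group, so no difference between groups has a replicate check, no p-value is given, and every interval below is a 95% interval of counting error only. The ages of the mice are not given in the sources used here.

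B cells carry an antigen receptor made of membrane immunoglobulin and the signalling partners CD79A and CD79B, and they present what that receptor binds to CD4 T cells on MHC class II molecules. CD40 on the B cell, engaged by CD40 ligand on the helper T cell or by an agonist antibody, drives activation, germinal centre entry and class switching. In tumours B cells occur as scattered naive or memory cells, in lymphoid aggregates and as antibody-secreting plasma cells.

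The libraries differed in more than treatment. PBS was counted with Cell Ranger 4 and the 4 treated libraries with Cell Ranger 7.1.0, per the file headers. The median UMIs of CD3-low immune barcodes were 7914 in PBS, 4734 in PD1plusCTLA4, 1419 in PD1plusCD40, 1820 in CD40plusCTLA4 and 14998 in Triplet. PD1plusCD40 and CD40plusCTLA4 kept 16884 and 16389 barcodes, more than the cells loaded. Pairs of libraries shared between 0 and 69 kept barcodes. Of the B cells, 2 in PD1plusCTLA4 carried a barcode that was also kept in PD1plusCD40, and no barcode was a B cell in both. PBS stood apart from PD1plusCTLA4 in immunoglobulin variable segments, described below, and in genes that differed alike in every cell class. Treatment and library cannot be told apart in any comparison between groups, including that of PD1plusCTLA4 with PD1plusCD40, CD40plusCTLA4 or Triplet. For the main B cell results, the same value in T cells or in C1q-positive phagocytes of the same libraries is set beside them.

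The 204 barcodes were not all alike. Of them, 24 held over 3 times the median UMIs of the B cells of their library, 11 in PBS and 13 in PD1plusCTLA4, and these deep barcodes held 80.2% of all B cell UMIs in PBS and 60.0% in PD1plusCTLA4. Of the 24, 16 held at least 20 UMIs of Krt8, a keratin of the tumour's epithelium, and 14 of those 16 had no UMI of Cd79b. The deepest, in PBS, held 72882 UMIs with 124 of Krt8 and 89 of Krt18, 3 of Cd79a, 1 of Ebf1, 1 of Pax5 and 0 of Cd79b, Ms4a1 and Igkc. Barcodes with at least 20 Krt8 UMIs numbered 666 in PBS and 1126 in PD1plusCTLA4 over all kept barcodes, and Cd79a UMIs were found in 49 and 77 of these and Pax5 UMIs in 174 and 292. The markers of the label therefore go against it for those 14. The 2 others of the 16, both in PD1plusCTLA4, held 1 UMI of Cd79b each, with 9 and 6 of Ighm and 7 and 11 of Igkc, beside 30 and 20 of Krt8, so B cell and keratin RNA stood in the same barcode. The 60 barcodes of PBS and 110 of PD1plusCTLA4 that were not deep are here called B cells of ordinary depth. None of these held a Krt8 UMI. That they hold markers of the label follows from the rule itself. Outside the rule, Ighm was in 48 and 97 of them, and 2 of the 60 in PBS also held the NK cell gene Gzma. B cells of ordinary depth had a median of 1911 UMIs and 982 genes in PBS and of 1615.5 UMIs and 844.5 genes in PD1plusCTLA4. Results are given for B cells of ordinary depth, with the counts of each gene list over all B cells beside them. Summed levels over all B cells are mostly those of the deep barcodes, and more so in PBS. Folds over all B cells are therefore no second measure of B cell expression.

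**Figure D1:**
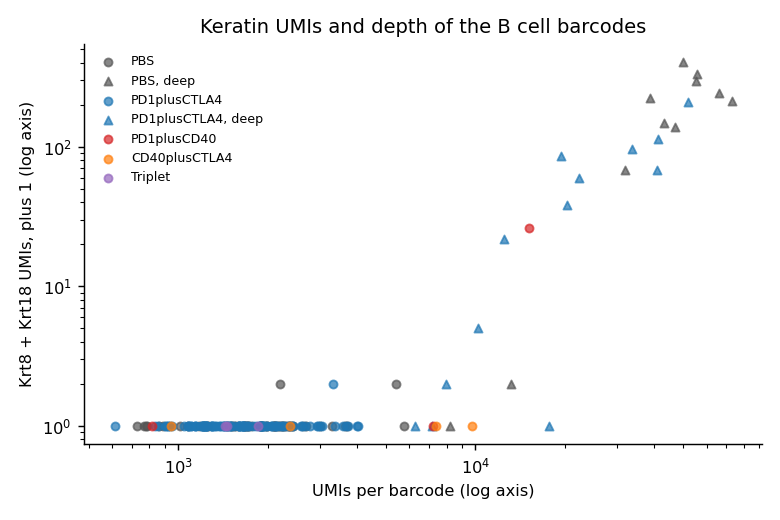
Each point is 1 of the 204 barcodes, with its UMIs on the x axis and its Krt8 and Krt18 UMIs, plus 1, on the y axis (both log axes); triangles are the 24 deep barcodes and colours are libraries. The 16 deep barcodes with at least 20 Krt8 UMIs lie at the upper right, and nearly all barcodes of ordinary depth hold 0 keratin UMIs.

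Markers of other immune cells were low in B cells of ordinary depth. The 8 neutrophil and 6 mast cell markers were at 0 in both libraries, and of 14 T cell markers 8 were at 0 in PBS and 9 in PD1plusCTLA4, with summed levels of 159.7 and 36.0 UMIs per 1000000 (CPM). The 14 phagocyte markers summed to 1714.5 CPM in PBS and 1496 in PD1plusCTLA4, led by Apoe with 68 and 151 UMIs. Lyz2, a lysozyme of phagocytes, had 31 and 25 UMIs. NK cell markers summed to 974.9 CPM in PBS and 56.6 CPM in PD1plusCTLA4. In PBS the 64 UMIs of the granzyme gene Gzma came from 2 of the 60 cells, 1 of which held 58. Of the 11 markers of plasmacytoid dendritic cells, Siglech was at 0 by the rule and Irf8, which B cells also express, had 47 and 57 UMIs. The part of these RNAs in the results was not tested.

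Near the thresholds, 25 B cells had exactly 3 Cd79 UMIs and 32 further barcodes missed the rule with exactly 2. The panel of 5 genes had 1 UMI in 14 B cells, and 21 barcodes missed the rule with 0. The highest CD3 count allowed, 1 UMI, was held by 1 B cell, and 1 barcode missed by 1 UMI, while 10 B cells held 2 C1q UMIs and 0 barcodes missed with 3.

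B cells made up 2.05% of CD3-low immune barcodes in PBS (57 of 2778, exact Clopper-Pearson interval 1.56 to 2.65%) and 2.24% in PD1plusCTLA4 (112 of 4999, 1.85 to 2.69%). Those intervals overlap. The share was 0.00645% in PD1plusCD40 (1 of 15496, 0.000163 to 0.0360%), 0.0262% in CD40plusCTLA4 (4 of 15276, 0.00713 to 0.0670%) and 0.106% in Triplet (3 of 2839, 0.0218 to 0.309%). Every library that received anti-CD40 thus lay below both libraries without it, with no overlap of intervals. Summed over the 3 anti-CD40 libraries, the share was 8 of 33611, or 0.0238% (0.0103 to 0.0469%). The counted barcodes are fewer than the 204 because a member with under 3 UMIs over 6 general immune genes (Ptprc, Laptm5, Coro1a, Cd52, Fcer1g and Tyrobp) is outside this denominator. B cells of ordinary depth alone gave 1.98% in PBS and 2.08% in PD1plusCTLA4.

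**Figure D2:**
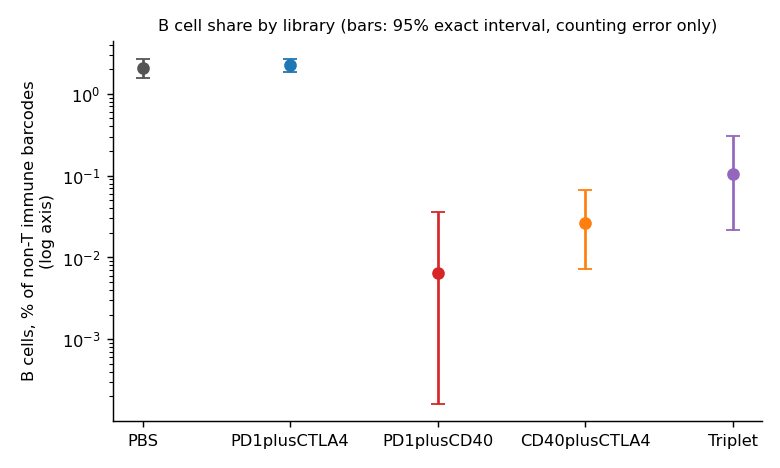
Points give the share of B cells among CD3-low immune barcodes in each of the 5 libraries, in percent on a log axis, and bars are 95% exact intervals of counting error. PBS and PD1plusCTLA4 sit near 2% and the 3 libraries with anti-CD40 sit at 0.106% or below.

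When every barcode was thinned to 1000 UMIs and the rule applied again, B cells were 1.52% of 2558 barcodes in PBS, 1.52% of 4938 in PD1plusCTLA4, 0 of 11031 in PD1plusCD40, 0.00805% of 12430 in CD40plusCTLA4 and 0.0636% of 3145 in Triplet. Other scarce classes also varied. Plasmacytoid dendritic cells, counted over the same denominator, were 0.432% in PBS and 3.14% in PD1plusCTLA4, against 0.0258%, 0.0458% and 0.282% in PD1plusCD40, CD40plusCTLA4 and Triplet. NK cells were 1.73%, 14.1%, 0.774%, 1.43% and 0.740% in the same order.

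Whole-library levels of 10 B cell genes that the rule did not use were compared as well. Of these, 6 had all 3 anti-CD40 libraries below both others with separate intervals (Ighd, Igkc, Fcer2a, Blk, Vpreb3 and Tnfrsf13c) and 4 did not (Cd22, Ly6d, Spib and Cr2). The share of all genes with that order was not counted, so the 6 of 10 are description only. The B cells held 71.0 to 91.9% of the Ighd, Fcer2a and Vpreb3 UMIs of PBS and PD1plusCTLA4, but 40.8 and 36.4% of those of Blk, 34.2 and 69.5% of those of Igkc and 10.5 and 5.92% of those of Tnfrsf13c, so that most Tnfrsf13c and Blk UMIs lay in other barcodes. Ighd, the constant region of IgD, had 81 UMIs over all kept barcodes of PBS and 238 in PD1plusCTLA4, against 8, 17 and 34 in PD1plusCD40, CD40plusCTLA4 and Triplet. That is 1.44 CPM in PBS (1.15 to 1.79) and 2.68 CPM in PD1plusCTLA4 (2.35 to 3.05), compared with 0.110, 0.194 and 0.508 CPM. Fcer2a, the low-affinity IgE receptor CD23 of naive follicular B cells, was at 1.37 and 1.23 CPM and at 0.110, 0.0457 and 0.149 CPM. Spib, also a factor of plasmacytoid dendritic cells, was at 1.23 and 2.84 CPM and at 1.87, 1.497 and 1.33 CPM, so that its intervals overlapped. Fewer B cells and less B cell RNA per cell cannot be told apart from such whole-library levels alone.

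The 10 barcodes of the anti-CD40 libraries are too few for a comparison of expression and are given one by one. In PD1plusCD40 one held 15210 UMIs with 18 of Krt8 and no immunoglobulin, one held 7202 UMIs with 11 of Ighm, 26 of Igkc and 50 of Cd74, and one held 815 UMIs with 7 of Ighm and 22 of lambda constant regions. In CD40plusCTLA4 one of 9769 UMIs held 196 of Lyz2 beside 14 of Igkc, and one of 7360 UMIs held 17 of Cd79a, 14 of Cd79b, 49 of Igkc and 39 of lambda. The 2 others there held 10 and 13 UMIs of Igkc. In Triplet the 3 barcodes held 1861, 1454 and 1435 UMIs, with 2, 5 and 5 of Ighm. So 9 of the 10 held heavy and light chain RNA, and 1 of those also held the lysozyme level of a phagocyte.

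By constant region UMIs alone, heavy chain use in B cells of ordinary depth was that of unswitched cells. Light chain constant regions were no measure of light chain choice, as described below. Whether heavy chain counts share that limit was not tested. In PBS, Ighm had 116 UMIs in 48 of 60 cells and Ighd had 64 in 31, and the IgG, IgA and IgE constant regions had 0 of the 180 heavy chain UMIs. IgM and IgD were 100% of them (97.97 to 100%). In PD1plusCTLA4, Ighm had 359 UMIs in 97 of 110 cells and Ighd 160 in 70, and IgM and IgD were 99.4% of 522 (98.3 to 99.9%), with 1 UMI each of Ighg1, Ighg2b and Ighg3. Every cell with a heavy chain UMI, 52 in PBS and 104 in PD1plusCTLA4, was led by Ighm or Ighd. Ighm UMIs were also found in 28.9% of T cells and 27.5% of C1q phagocytes of PBS, and in 19.6% and 26.6% of those of PD1plusCTLA4, at median depths of 3052 and 9918 UMIs in PBS. Ighd was in 3 of 522 T cells and 8 of 1831 phagocytes in PBS, so Ighd separates B cells from these classes far more than Ighm does. In CPM, Ighm stood at 974.9 in B cells of PBS against 133.8 in T cells and 60.1 in phagocytes, and Igkc at 1008 against 36.7 and 0.0476.

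One deep barcode of PD1plusCTLA4 was of another kind. It held 17743 UMIs with 4715 of Igkc, 813 of the IgA constant region Igha, 852 of Jchain, which joins polymeric IgA and IgM, and 99 of Cd74, and it had 0 UMIs of Ighm and of Ms4a1. With it and the other deep barcodes, IgM and IgD were 40.9% of heavy chain UMIs in PD1plusCTLA4. Only 1 other kept barcode, also in PD1plusCTLA4, met the rule for antibody-secreting barcodes (at least 3 Jchain UMIs and 10% or more of UMIs on immunoglobulin) and was no member. In B cells of ordinary depth the plasma cell genes Jchain, Prdm1 and Tnfrsf17 had 0 UMIs in both libraries. Mzb1, a chaperone of secretory and marginal zone B cells, had 27 and 69 UMIs in 20 and 45 cells.

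Light chains and variable segments marked the difference between the 2 libraries. Reads of variable segments were 70.2% (68.2 to 72.2%) of the 2019 immunoglobulin UMIs of ordinary-depth B cells in PBS and 2.25% (1.72 to 2.89%) of 2666 in PD1plusCTLA4. Kappa was 28.5% (24.2 to 33.1%) of constant light chain UMIs in PBS and 63.0% (60.9 to 65.1%) in PD1plusCTLA4. In PBS more UMIs lay on lambda than kappa constant regions in 44 of 60 cells, against 24 of 110 in PD1plusCTLA4. Variable segments gave the opposite order in PBS: 1126 UMIs lay on Igkv segments and 41 on Iglv, and 55 cells held at least 3 Igkv UMIs while 1 held at least 3 Iglv UMIs. The share of constant regions is thus no measure of light chain choice in PBS. Of 108 cells of PD1plusCTLA4 with at least 5 constant light chain UMIs, 16 held at least 90% kappa and 7 at least 90% lambda. Most of these cells thus held both, and the share is no measure of light chain choice in that library either. The sources used here do not say whether chemistry or gene annotation differed between the 2 libraries, and such a difference cannot be told apart from treatment in any fold between them. Iglc2 alone had 183 UMIs in 53 of 60 cells of PBS and 398 in 92 of 110 cells of PD1plusCTLA4.

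**Figure D3:**
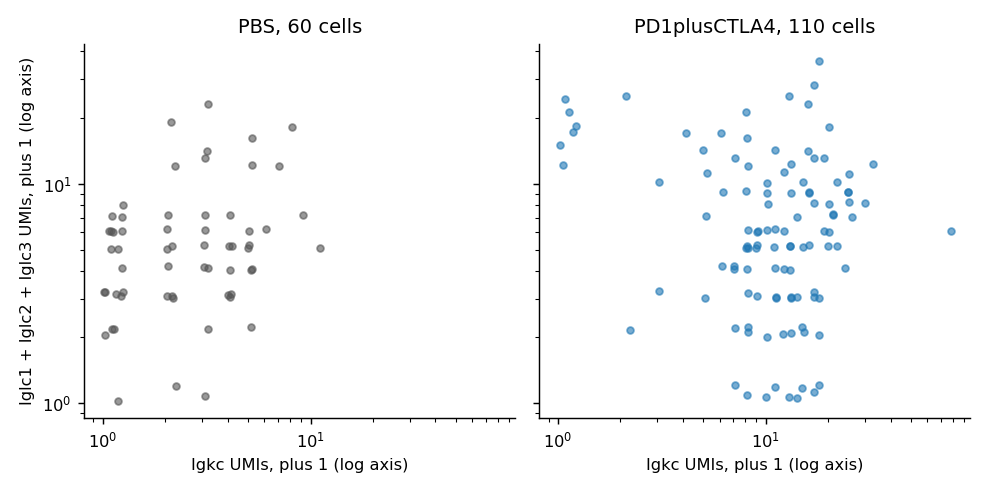
Each point is 1 B cell of ordinary depth, with Igkc UMIs plus 1 on the x axis and the UMIs of Iglc1, Iglc2 and Iglc3 plus 1 on the y axis (log axes, with a small random offset to part equal values). The 60 cells of PBS lie left of most of the 110 cells of PD1plusCTLA4, in which 104 held Igkc.

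The variable segments of PBS showed many different receptors. The 55 cells with at least 3 Igkv UMIs were led by 33 different Igkv genes, with a median of 100% of a cell's Igkv UMIs on its leading gene, and the most frequent, Igkv6-15, led 4 cells. Among 42 cells with at least 3 Ighv UMIs, 27 different Ighv genes led, the leading gene held a median of 80.0%, and Ighv9-3 led 5 cells. No segment led more than 5 cells. In PD1plusCTLA4 no cell held 3 variable segment UMIs of any of the 3 families, so its receptors could not be described.

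The rule's own genes are given as levels in B cells of ordinary depth. Cd79a was at 4354 CPM in PBS and 2411 in PD1plusCTLA4, Cd79b at 2101 and 1383, Ms4a1 (CD20) at 764.8 and 1075, the transcription factor Ebf1 at 1740 and 3614, and the lineage factor Pax5 at 201.7 and 570.7, in 20 of 60 and 65 of 110 cells. Genes outside the rule were also those of mature B cells. Cd22, an inhibitory receptor, was at 176.5 and 174.8 CPM, Blk, a Src-family kinase of the receptor, at 395.0 and 246.8, and Vpreb3 at 277.4 and 354.8. Fcer2a was at 521.1 and 406.2 CPM and was seen in 37 of 60 and 42 of 110 cells. Thinned to 1000 UMIs a cell, with 7 and 8 shallower cells left out, Fcer2a was in 39.6% of 53 cells (26.5 to 54.0%) and 24.5% of 102 cells (16.5 to 34.0%), and in 0 T cells and 0 C1q phagocytes of either library. Cr2, the complement receptor CD21, was at 100.8 and 257.1 CPM.

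Germinal centre and cell cycle genes were mostly too few to measure. Of 16 germinal centre genes, 8 had 0 UMIs in PBS and 6 in PD1plusCTLA4. The list summed to 857.3 and 1188 CPM, led by Gpr183, a chemotactic receptor also found on other B cells, with 61 and 134 UMIs, and Lmo2 with 26 and 49. Of the 4 measured, 1 was higher, Cd38 (33.6 and 118.3 CPM, log2 fold 1.56, against 0.28 in T cells). Gpr183 and Cd38 are not particular to germinal centre cells, so the list's level is no measure of such cells. The 24 cell cycle genes summed to 1034 and 622.1 CPM, with 11 and 8 at 0. Tubb5, a tubulin gene, and Hmgb2, a chromatin protein gene, held 64 and 32 UMIs of that list in PBS and 25 and 49 in PD1plusCTLA4. Tubb5 was the lower 1 of 3 measured (-1.98, against -1.16 in T cells). S1pr2 and Gcsam of the germinal centre had 0 UMIs in both libraries, as did Mki67 of dividing cells. A count of 0 allows up to 25.2 CPM in PBS and 15.4 CPM in PD1plusCTLA4 (3 UMIs of the summed total). Bcl6 had 5 and 15 UMIs. Cd5 of B1 cells had 0 and 2, Il10 had 0 in both, and Cd1d1 had 1 in each.

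The main comparison that the numbers allow is PD1plusCTLA4 against PBS. UMIs were summed over the cells of each library and taken as CPM, and the log2 fold was computed on CPM plus 10 for genes with at least 20 UMIs over both. Over all B cells 7257 genes were measured, of which 740 (10.2%) were at least 2-fold higher in PD1plusCTLA4 and 972 (13.4%) at least 2-fold lower. Among B cells of ordinary depth 2514 genes were measured, with 363 (14.4%) higher and 310 (12.3%) lower, and a median log2 fold of 0.07 over all of them. In T cells 12865 genes were measured, with 367 higher and 509 lower. In C1q phagocytes 14056 were measured, with 254 higher and 227 lower. The counts below are read against those over all genes of the same class. A gene can pass the filter of 20 UMIs through 1 library alone. At ordinary depth PD1plusCTLA4 held 194498 UMIs against 118983 in PBS. Calls of genes scarce in PBS, such as Cd38, Traf3, Dapp1, Irf1 and Ly6a, thus lean on the library where they are high and are description only. Values are for B cells of ordinary depth unless stated.

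MHC class II genes were lower in B cells of PD1plusCTLA4. Of 12 measured genes of this list, 5 were at least 2-fold lower and 0 higher, with a median log2 fold of -0.88, against -0.15 in T cells and -0.17 in C1q phagocytes. Cd74, the invariant chain that guides class II molecules to the peptide-loading compartment, was at 26382 CPM (25467 to 27321) in PBS and 6782 CPM (6420 to 7158) in PD1plusCTLA4, a log2 fold of -1.96. All 60 cells of PBS and 107 of 110 of PD1plusCTLA4 held it. H2-Aa, the class II alpha chain, was at 9195 and 3090 CPM (log2 fold -1.57, ratio 0.304 to 0.372). Its partner H2-Ab1 was at 4572 and 1866 CPM (-1.29), and H2-Eb1, a further beta chain, at 4387 and 2242 CPM (-0.97). H2-DMb2, of the peptide exchange factor, was at 1504 and 380.5 CPM (-1.96), and H2-Oa, which restrains that factor, at 327.8 and 128.5 CPM (-1.29).

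Other genes of the class II list were close in the 2 libraries. Ciita, the coactivator that switches on class II genes, was at 168.1 and 154.2 CPM (-0.12, ratio 0.504 to 1.70), the protease gene Ctss at 302.6 and 318.8 CPM (0.07), and Ifi30, a thiol reductase of antigen processing, at 1160 and 1486 CPM (0.35). In C1q phagocytes of the same libraries Cd74 differed by -0.75, H2-Aa by -0.56, H2-Ab1 by -0.43 and H2-DMb2 by -1.26 on the log2 scale. In T cells, whose CPM levels of both genes were below those of B cells, Cd74 differed by -0.88 and H2-Aa by -0.71. These genes were thus lower in PD1plusCTLA4 in all 3 classes, and the difference was larger in B cells than in the other 2 for each of Cd74, H2-Aa, H2-Ab1 and H2-DMb2. With 1 library per group that gap between classes has no test. Plasmacytoid dendritic cells (12 and 157) were also lower, with Cd74 at 9277 and 3137 CPM and H2-Aa at 3505 and 1432.5 CPM. NK cells (48 and 705) had Cd74 at 3102 and 1340 CPM and H2-Aa at 1533 and 681.4 CPM. A lower level of these 2 genes was thus not particular to B cells. Over the deep barcodes as well, Cd74 differed by -1.10, H2-Aa by -0.72 and H2-DMb2 by -0.91, and the list had 1 lower and 0 higher of 13, with a median of -0.14.

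Within cells the separation was wide. The class II list took a median of 5.31% of a cell's UMIs in PBS, from 0.994 to 9.69%, and 1.77% in PD1plusCTLA4, from 0.328 to 3.38%. The ranges overlapped, with 57 of 60 cells above 2% in PBS and 32 of 110 in PD1plusCTLA4. H2-Aa was held by 60 of 60 and 102 of 110 cells, and thinned to 1000 UMIs a cell it was detected in 100% of 53 cells and 89.2% of 102 cells, against 14.5% and 9.75% of T cells and 80.4% and 86.6% of C1q phagocytes. Among the 10 barcodes of the anti-CD40 libraries, Cd74 ranged from 0 to 116 UMIs.

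**Figure D4:**
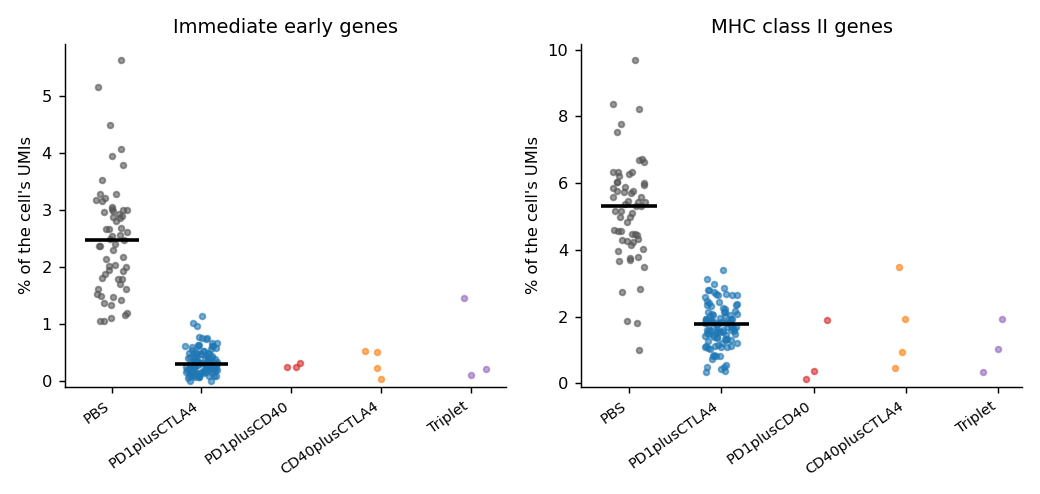
Each point is 1 B cell of ordinary depth by library, and the y axis is the percent of its UMIs on the immediate early list (left) or the MHC class II list (right); lines are medians of the libraries with over 50 cells. Cells of PBS lie higher on both, around 2.48% against 0.305% on the left and 5.31% against 1.77% on the right.

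The promoters of 2 class II genes, H2-Aa, which was over 2-fold lower, and H2-Eb1, which was not, are shown for the Y box that binds NF-Y next to the class II enhanceosome, searched as CTGATTGG on both strands. Of the 14 listed class II genes 11 were matched in RefSeq promoter windows (250 bases before to 50 after a start, GRCm38.p6). Of these, 3 (H2-Aa, H2-Eb1 and H2-Oa) held the Y box, against 4.70% of all 27025 genes with a window. So did 3 of 16 matched immediate early genes (Hspa1a, Hspa1b and Klf6). The 150 bases before each start are given with the Y box in capitals, for H2-Aa at chr17:34287824-34287973 on the minus strand and for H2-Eb1 at chr17:34305717-34305866 on the plus strand.
H2-Aa: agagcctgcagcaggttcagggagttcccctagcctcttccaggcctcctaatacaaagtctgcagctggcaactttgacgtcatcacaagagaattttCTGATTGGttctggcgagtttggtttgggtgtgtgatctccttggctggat
H2-Eb1: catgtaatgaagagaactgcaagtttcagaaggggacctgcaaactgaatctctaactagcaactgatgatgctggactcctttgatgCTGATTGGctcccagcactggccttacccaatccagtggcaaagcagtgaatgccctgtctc
The Y box begins 51 bases before the start in H2-Aa and 62 before it in H2-Eb1 and did not overlap the other motifs searched. Of 17 matched genes of the B cell identity list, 2 (Blnk and Vpreb3) held the octamer ATGCAAAT, against 1.97% of all genes. The EBF1-type palindrome was held by 1 (Cd22), against 1.06% of all genes. The reference is of another mouse strain than Balb/c, and a match is a run of letters and not a measured binding site.

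Immediate early genes, which answer stimulation within minutes and are also known to be induced by tissue dissociation, were far lower in PD1plusCTLA4. Of 13 measured genes of this list, 12 were at least 2-fold lower and 0 higher, with a median log2 fold of -2.46. T cells had 17 of 18 lower with a median of -1.56, and C1q phagocytes 14 of 18 lower with a median of -1.68, so the difference was shared by all 3 classes. Fos, of the AP-1 factor, was at 3194 CPM in PBS and 179.9 in PD1plusCTLA4 (log2 fold -4.08, ratio 0.0387 to 0.0798), and in 56 of 60 and 26 of 110 cells. Junb was at 4110 and 421.6 CPM (-3.25), Dusp1, a phosphatase of MAP kinases, at 1504 and 82.3 CPM (-4.04), and Zfp36, which destabilises cytokine mRNAs, at 2883 and 149.1 CPM (-4.18).

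Nr4a1, a nuclear receptor used as a reporter of antigen receptor signalling, was at 706.0 CPM in PBS, in 20 of 60 cells, and at 15.4 CPM in PD1plusCTLA4, in 2 of 110. Its log2 fold of -4.82 compares with -2.30 in T cells and -1.19 in C1q phagocytes. Thinned to 1000 UMIs, Nr4a1 was in 28.3% of 53 B cells (16.8 to 42.4%) and 0.980% of 102 (0.0248 to 5.34%), against 13.5% and 1.54% of T cells and 3.81% and 0.701% of phagocytes. Fos at that depth was in 86.8% and 11.8% of B cells, 45.5% and 7.80% of T cells and 44.9% and 14.0% of phagocytes. The immediate early list took a median of 2.48% of a B cell's UMIs in PBS, from 1.05 to 5.63%, and 0.305% in PD1plusCTLA4, from 0 to 1.14%, with a narrow overlap. Over all B cells, deep ones included, the list's median log2 fold was -1.44 with 10 of 16 lower.

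The Fos promoter carries a cAMP response element, searched as TGACGT on both strands. Of 16 matched immediate early genes 4 (Fos, Dusp1, Btg2 and Atf3) held it in their windows, against 8.37% of all genes. The 150 bases before the Fos start, at chr12:85473740-85473889 on the plus strand of GRCm38.p6, are given with the element in capitals, 66 bases before the start.
Fos: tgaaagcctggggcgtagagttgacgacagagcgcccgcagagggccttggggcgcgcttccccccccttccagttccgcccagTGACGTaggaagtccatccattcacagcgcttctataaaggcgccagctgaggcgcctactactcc

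Some genes of lymphocyte homing were lower. Ccr7, the receptor that leads lymphocytes to lymph node T zones, was at 1151 CPM in 46 of 60 cells of PBS and 138.8 CPM in 19 of 110 cells of PD1plusCTLA4 (log2 fold -2.96, ratio 0.0767 to 0.183), with -2.36 in T cells and -1.13 in phagocytes. Klf2, a factor that keeps lymphocytes recirculating, was at 5682 and 874.0 CPM (-2.69), with -2.02 in T cells and -1.85 in phagocytes. Itgb7, an integrin chain of gut homing, was at 184.9 and 36.0 CPM (-2.08). Cxcr5, Ccr6, Cxcr4 and S1pr1 differed by 0.66, 0.32, -0.31 and -0.51, none of them by 2-fold. In all, 3 of 11 measured genes of this list were lower and 0 higher, with a median of -0.31, against -0.32 in T cells. Over all B cells the direction of the list was the opposite, with 4 higher and 3 lower of 12 and a median of 0.58.

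Of the antibody targets, Cd40 was detected in B cells, while Pdcd1 and Ctla4 were at or near 0. Cd40 had 23 UMIs in 21 cells of PBS and 27 in 22 cells of PD1plusCTLA4, that is 193.3 and 138.8 CPM (-0.45, ratio 0.396 to 1.31). Pdcd1, which encodes PD-1, had 0 UMIs in both libraries and Ctla4 had 0 and 3. The PD-1 ligand Cd274 had 15 and 13 UMIs (-0.82), and Pdcd1lg2 had 4 and 5. The CTLA-4 ligand Cd86 was at 109.3 and 144.0 CPM (0.37) and Cd80 had 0 and 2 UMIs. Traf3, a brake on CD40 signalling, was at 58.8 and 205.7 CPM (1.65, ratio 1.55 to 9.25), the only one of 7 measured genes of this list past 2-fold, against 0.74 in T cells and 0.68 in phagocytes. The list's median was -0.45, and over all B cells it was 0.56, with 3 of 9 higher and 0 lower.

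Activation genes downstream of CD40 and the antigen receptor overlap the immediate early genes, and their direction depended on the deep barcodes. Of 16 measured at ordinary depth, 4 were lower (Cd83, Myc, Egr1 and Nr4a1) and 1 higher (Ccnd2), with a median of -0.66, against -0.49 in T cells. With the deep barcodes 6 were higher and 3 lower of 21, with a median of 0.22. Cd83, a maturation marker, was at 621.9 and 287.9 CPM (-1.08), with -1.09 in T cells and -1.11 in phagocytes. Cd69, an early activation marker, was at 353.0 and 246.8 CPM (-0.50, ratio 0.452 to 1.08). Nfkbia, the inhibitor of NF-kB, was at 512.7 and 262.2 CPM (-0.94), with -1.71 in T cells. After the fold of T cells was taken off each gene, the list's median was 0.21.

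Antigen receptor signalling genes also depended on the deep barcodes. With these included, 11 of 20 were higher and 0 lower, with a median of 1.23. Of 19 measured at ordinary depth, 2 were higher, the kinase gene Lyn (294.2 and 658.1 CPM, 1.14, against 0.96 in T cells) and the adaptor gene Dapp1 (50.4 and 133.7 CPM, 1.25, against 0.48). Of the 2 lower, the phosphatase gene Ptpn6 was at 445.4 and 200.5 CPM (-1.11, against -0.95). The median was 0.36. Syk differed by 0.58, Btk by 0.61, Blnk by -0.36 and Plcg2 by 0.92.

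Cytokine and regulatory genes were mostly unmeasured. Of 22 genes 5 reached 20 UMIs and 3 of those were lower. Tgfb1 was at 344.6 and 87.4 CPM (-1.86, against -0.77 in T cells), Cd24a, a mucin-like marker of B cell maturation, at 470.7 and 113.1 CPM (-1.97, against -0.88), and Lgals1 at 201.7 and 77.1 CPM (-1.28, against -0.64). Ltb, the lymphotoxin chain that organises lymphoid tissue, was at 1580 and 1260 CPM (-0.32). In all B cells together 1 of 7 was lower and 0 higher, with a median of -0.44.

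Few interferon-gamma response genes could be measured. Of 8 measured of 26, 3 were higher and 0 past 2-fold lower, 2 of the 8 lay below 0, with a median of 0.63, against 0.22 in T cells and 1.37 in phagocytes, where 17 of 26 were higher. Of the 26 genes, 8 had 0 UMIs in PBS and 3 in PD1plusCTLA4. The filter thus lets the count and median lean upward. The count over all B cells was 5 of 17 higher and 0 lower, with a median of 0.55. Irf1, a transcription factor of the interferon response, was at 75.6 and 200.5 CPM (1.30, ratio 1.26 to 6.22, against -0.50 in T cells and 1.43 in phagocytes). Ly6a had 1 UMI in PBS and 35 in 10 cells of PD1plusCTLA4. Of 10 MHC class I genes measured, 1 was lower, H2-T23 at 521.1 and 190.2 CPM (-1.41), and 0 were higher. H2-K1 was at 1429 and 709.5 CPM, just short of 2-fold, and B2m at 1034 and 1090 CPM (0.08). The list's median was -0.21, against 0.50 in phagocytes and 0.09 over all B cells.

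B cell identity genes as a list depended on the deep barcodes. Of 24 measured, 4 were higher and 2 lower at ordinary depth, with a median of -0.04, whereas over all B cells 12 were higher and 0 lower with a median of 0.97. The genes that the rule used are part of this list and support nothing here. Ly6d, a lymphocyte surface marker not in the rule that plasmacytoid dendritic cells also carry, was at 126.1 CPM in 12 of 60 cells and 637.5 CPM in 41 of 110 (2.25, ratio 2.95 to 9.31). It was in 9.43% and 28.4% of B cells thinned to 1000 UMIs and in 0 T cells and 0 phagocytes. The follicular list had 2 higher (Cr2, 1.27, and Bach2, 1.10) and 2 lower (Ccr7 and Klf2) of 13, with a median of -0.05, whereas over all B cells 7 were higher and 2 lower of 14, with a median of 0.96. Bach2, a repressor that holds B cells from the plasma cell fate, was at 613.5 and 1326 CPM. Of 7 survival genes, 1 was lower, the kinase gene Pim1 at 159.7 and 41.1 CPM (-1.73, against -1.34 in T cells), and 0 were higher. Mcl1 differed by 0.11, Bcl2 by 0.96 and the BAFF receptor gene Tnfrsf13c by -0.68. With deep barcodes 2 of 12 survival genes were higher and 1 lower, with a median of 0.46. Glycolysis and hypoxia genes had 1 of 8 higher, Hif1a (1.12, against -0.02 in T cells), and 3 lower, Ldha (-1.34), Aldoa (-1.78) and Eno1 (-1.74), against -1.19, -1.16 and -0.76 in T cells. Deep barcodes included, 3 of 16 were higher and 7 lower, with a median of -0.91.

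**Figure D5:**
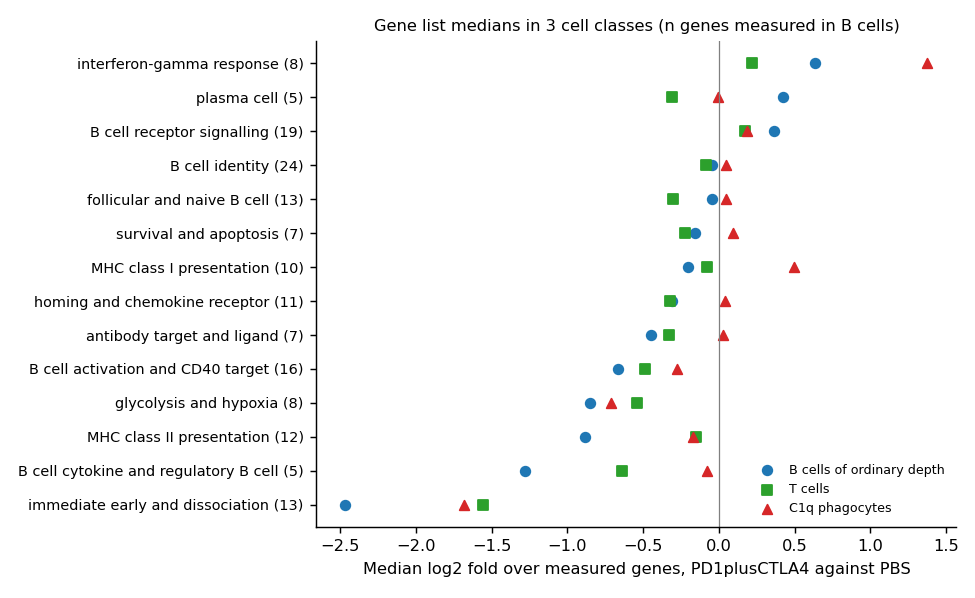
Points give the median log2 fold of PD1plusCTLA4 against PBS over the measured genes of each list, in B cells of ordinary depth (circles), T cells (squares) and C1q phagocytes (triangles), for lists with at least 5 genes measured in B cells. The immediate early list lies at -2.46, -1.56 and -1.68, and the MHC class II list at -0.88, -0.15 and -0.17.

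Over all B cells, 170 genes with at least 30 UMIs in at least 10 cells were higher in PD1plusCTLA4 with an interval of the ratio beyond 2-fold, and 166 were lower. Of the 12 furthest higher genes, all but Agbl1 and Ly6d were also higher in T cells, by 0.62 to 1.95 on the log2 scale. Inpp4b, a phosphoinositide phosphatase, was at 176.5 and 1069 CPM at ordinary depth (2.53, against 1.04 in T cells and 1.55 in phagocytes), and the nuclear RNA Malat1 was at 4059 and 21975 CPM (2.43, against 1.95 and 1.84). Kcnq5 differed by 2.23 (1.72 in T cells), Arhgap26 by 2.41 (0.88), Mir142hg by 1.65 (0.62), BE692007 by 1.81 (1.40), Man1a by 1.58 (1.01), Arhgap15 by 1.38 (1.30), Gng2 by 2.20 (0.77) and Maml2 by 1.71 (1.37). Agbl1 had 1 UMI in PBS and 42 in 14 cells of PD1plusCTLA4 (3.62, against 0.02 in T cells), and Ly6d completes the 12.

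The genes furthest lower in B cells differed by similar amounts in T cells. Il31ra had 49 UMIs in PBS and 1 in PD1plusCTLA4 (-4.80, against -4.57 in T cells and -4.44 in phagocytes). Coro1b, an actin regulator, had 15 and 0 (-3.77, against -3.28 and -3.04), and Nutf2, a nuclear import factor, had 16 and 1 (-3.25, against -3.50 and -3.38). Cdk8, of the Mediator complex, was at 4118 and 699.2 CPM (-2.54, against -3.07 and -3.93). H2-Q6 differed by -3.42 (-3.07 in T cells). The others, Def8, Gstp1, Ftl1-ps1, Cfap77 and Hmga1, had at most 12 UMIs in B cells of ordinary depth. H2-Q6 and Ftl1-ps1 have near-identical relatives, so their counts are uncertain.

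At ordinary depth alone, a repeat of that choice made after the data were seen, 23 genes met the rule upward and 56 downward. Beyond those named, the leading higher genes were Ly6a (3.37), Ap1s3 (3.16), Atf7ip (2.47), Setdb2 (2.47) and Celf1 (2.31). The lower ones added the small GTPase gene Rhob (-3.95), the stress phosphatase subunit Ppp1r15a (-3.10) and Jun (-3.09), which differed in T cells by -2.21, -2.20 and -2.06.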

How the data were processed

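The deposited values are whole-number UMI counts, one for each gene in each barcode, and the authors had not scaled them. Cell Ranger 4 made the PBS counts and 7.1.0 the others, per the file headers. The build is mm9 in the submitters' processing notes, with the gene annotation not given in the sources used here. The labels' protocols name a 5′ kit. Counts of IDs that share a symbol were summed. B cells and other classes were chosen on raw UMIs by fixed rules, and no doublet caller was run; deep members (over 3 times the median UMIs of their library's members) were described and left out as an alternative. T cells held at least 3 CD3 UMIs and C1q phagocytes at least 3 C1q UMIs, both with 0 Cd79 UMIs. Members and gene lists were chosen with earlier results of these data known.

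UMIs of a class were summed per library and expressed per 1000000 (CPM), with exact Poisson intervals for levels, exact conditional intervals for ratios and exact Clopper-Pearson intervals for shares, all at 95%. With 1 library per group no test was run, and a gene is called at 2-fold. The 3 anti-CD40 libraries held under 50 members together, so their planned comparison of genes was not made. Genes named as leading had at least 30 UMIs and 50 CPM in the higher library, UMIs in at least 10 members with none holding over 25% of them, and an interval of the ratio beyond 2-fold; immunoglobulin, mitochondrial, ribosomal, predicted and sex-linked genes, and genes over 5 times higher in another class, were left out. Otherwise up to about 6 genes with most UMIs per list are named, and further names were chosen after their values were seen. Some genes are not reported here. The fold computation was checked on simulated counts. Python 3.11.15, numpy 2.4.6, scipy 1.17.1 and pandas 2.3.3 were used, and edgeR 4.0.16 for TMM scaling as an alternative.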

Additional observations from a re-analysis of the deposited data

How the results depend on the processing

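With 1 library per group no paired analysis was possible because the groups hold 1 pooled library each, and the depth of 118983 UMIs in PBS and 194498 in PD1plusCTLA4 at ordinary depth limits levels to about 25.2 and 15.4 CPM. With members holding any UMI of phagocyte, T cell or keratin genes left out, the share of B cells was 0.972% in PBS, 1.34% in PD1plusCTLA4 and 0 in PD1plusCD40 and CD40plusCTLA4. Thinned to 1000 UMIs it was 1.52%, 1.52% and 0 in PBS, PD1plusCTLA4 and PD1plusCD40. In PD1plusCTLA4 it was 1.70% with at least 5 Cd79 UMIs and 1.23% over all kept barcodes. PBS and PD1plusCTLA4 stayed above the 3 others under each of these alternatives.

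The counts of 740 higher and 972 lower genes became 363 and 310 without deep members, 241 and 197 without members holding other-lineage UMIs, 216 and 289 with a pseudocount of 50, and 219 and 202 with members thinned to 1000 UMIs. With the fold of T cells taken off they were 337 and 425, with that of C1q phagocytes 266 and 480, and with deep members left out and the T cell fold taken off 109 and 124. Other settings for cells, scaling, pseudocount and low counts kept both counts within 1.5 times. Of the 18 B cell and pathway lists, 6 had a median below that of all genes, against 12 without deep members, 10 without other-lineage members and 10 with members counted equally. The settings on phagocytes, on equal counting and on 2 choices together were chosen after seeing the data.

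The type I interferon median of -1.30, over 19 measured genes, became 1.72 without other-lineage members and 0.88 when thinned. Without deep members 2 of its genes were measured, and their median was 0.60, or 0.18 with the T cell fold taken off as well. The marginal zone median of 1.502, over 5 measured genes, became -0.15 with the T cell fold taken off and -0.999 with that of phagocytes. It became -0.69 in the combined setting, over 3 genes. The immediate early median of -1.44 over all members became 0.71 and 0.0412 with the T cell and phagocyte folds taken off. At ordinary depth this list's median was -0.50 with the T cell fold taken off. Irf4 turned to -0.0895 without deep members and -0.18 without other-lineage members, and Apoe to -0.66 in the latter; 69 of 71 named genes past 2-fold over all members kept their sign under each alternative that recomputes a gene's own fold.

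IgM and IgD in PD1plusCTLA4 were 99.4% without deep members, 99.3% with at least 5 Cd79 UMIs, 99.7% without other-lineage members and 84.5% when thinned, against 40.9% over all members. Kappa was 63.0%, 63.9%, 61.8% and 68.8% in the same settings, against 86.9% over all members.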

Other observations

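Plasmacytoid dendritic cells were the other class rich in Ighm. Its UMIs were in 12 of 12 such cells in PBS and in 140 of 157 in PD1plusCTLA4, at 701.0 and 358.6 CPM, against 974.9 and 1846 CPM in B cells of ordinary depth. Ighd was at 0 there in PBS, which for 12 cells allows up to 44.7 CPM, and at 8.47 CPM in PD1plusCTLA4, compared with 537.9 and 822.6 CPM in the B cells. Igkc UMIs were in 5 of 12 and 56 of 157 of these cells, and 59 of the 88 in PBS came from 1 cell.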
